A study of Mus musculus with 13 samples.

Results

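The mitochondrial ribosomal protein genes were taken as all genes in the deposited expression tables whose symbol is Mrpl or Mrps followed by a number and at most 1 letter from a to d. The rule found 78 of 24972 genes and used no measured value. By textbook assignment, 51 of them encode proteins of the large subunit of the mitochondrial ribosome, 26 encode proteins of the small subunit, and 1, Mrps36, carries the name but encodes a component of the alpha-ketoglutarate dehydrogenase complex. Mrps30 and Mrps18a were counted with the large subunit, where their proteins sit despite the small-subunit symbol.

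The study asked how Notch signaling shapes common lymphoid progenitors (CLPs), the bone marrow (BM) cells from which B, T, and NK cells can arise. RNA was sequenced from CLPs of 5 WT, 5 Notch1+/-, and 3 Notch1+/ΔTAD mice, all C57BL/6 and 6 to 12 weeks of age, sorted as DAPI-, Lin-, Sca1 low, cKit low, CD127+, and CD135+ cells. Notch1+/- mice carried 1 functional Notch1 allele, and Notch1+/ΔTAD mice carried 1 allele without the transactivation domain beside 1 WT allele. Both alleles are germline, so cells other than CLPs carried them too. Each library is named here by its genotype and the number in its label, the WT libraries being 1, 2, 3, 10, and 11, the Notch1+/- libraries 4, 5, 6, 12, and 13, and the Notch1+/ΔTAD libraries 7, 9, and 14.

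The mitochondrial ribosome makes the few proteins that the mitochondrial genome encodes, all of them parts of the oxidative phosphorylation chain. Its RNAs are transcribed in the mitochondrion, whereas its proteins are encoded in the nucleus, translated in the cytosol, and imported. Some of the proteins descend from bacterial ribosomal proteins, and others were added in the mitochondrial lineage. Because each protein is needed in about equal number, the genes are usually described as a coexpressed housekeeping set.

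Values were TPM (transcript abundances on a relative scale), which sum to 1000000 in each library and came without read counts, so the depth behind a value is unknown and no limit can be set for a gene listed at 0. The libraries hold sequence from the 3′ ends of transcripts. Between 3264 and 6326 genes per library were above 0. Of 7 genes of the CLP gate and of lymphoid priming (Il7r, Flt3, Kit, Ly6a, Dntt, Rag1, and Ly6d), 3 were above 0 in all 13 libraries. The 7 summed to 5487 to 9275 TPM in WT, 2521 to 10556 TPM in Notch1+/-, and 5742 to 6248 TPM in Notch1+/ΔTAD libraries. Dntt, which is not a marker of the sort gate, was 2095 to 9616 TPM of this. Among genes of the gate, Flt3 was above 0 in 13 libraries, Il7r in 12, Kit in 8, and Ly6a, which encodes Sca1, in 5. Of 8 erythroid markers, 6 were listed at 0 in all 13 libraries, as were 5 of 8 T and NK markers. The T and NK markers still summed to 0.311 to 1122 TPM in WT, 0 to 129 TPM in Notch1+/-, and 0 to 262 TPM in Notch1+/ΔTAD libraries. Nkg7 was at 1122 TPM in WT library 10 and 262 TPM in Notch1+/ΔTAD library 9. The 7 B lineage markers summed to 4.95 to 897 TPM in WT, 14.5 to 1839 TPM in Notch1+/-, and 79.5 to 1555 TPM in Notch1+/ΔTAD libraries, and the 8 myeloid markers to 436 to 2067, 212 to 1257, and 272 to 1773 TPM. Notch1 itself ranged from 0 to 25.7 TPM in WT, 9.27 to 78.5 TPM in Notch1+/-, and 0.893 to 35.0 TPM in Notch1+/ΔTAD libraries, so its level does not check the labels. In bulk RNA, fewer cells of a type and less RNA per cell cannot be told apart.

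All 78 genes were found in the GENCODE M21 annotation of GRCm38, on 17 chromosomes, with 8 of them on chromosome 17. RefSeq promoter sequences, from 250 bases before to 50 bases after a start site on GRCm38.p6, matched 69 of the 78 symbols. These promoters were searched on both strands for short motifs of factors known to act on nuclear genes of mitochondria. At least 1 of the NRF1 core GCGCATGC, the ETS core CCGGAAG, and the YY1 core AAGATGGC was present in 55.1% of the 69 promoters, beside 14.9% of the promoters of all 27025 genes in the table and 31.2% of the 8035 genes that also had a TPM above 0 in at least 1 library. The ETS core was in 26 of the 69 (37.7%, beside 9.93% of all genes and 22.2% of those with a TPM above 0), the YY1 core in 12 (17.4%, beside 3.19% and 5.90%), and the NRF1 core in 8 (11.6%, beside 3.05% and 6.57%). The GC box GGGCGG was in 49.3% of the members' promoters, above its share of all genes (38.2%) and below its share of genes with a TPM above 0 (69.6%). CCAAT was in 39.1% (41.1% and 43.1%) and the E box CACGTG in 7.25% (8.09% and 12.2%). None of these letter strings contains another, a promoter could hold more than 1, and a match is a run of letters and not evidence of binding. Most of the YY1 core matches began after the start site, by 11 to 36 bases, and that of Mrpl42 by 27 bases.

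The windows printed next are those of the 3 members with the highest median levels and of 2 others that show the remaining motif and the other orientation. Each is 30 bases of GRCm38.p6 sequence from RefSeq, written 5′ to 3′ on the gene's strand, with the motif or its reverse complement in capitals.
Mrpl33, NRF1 core, chr5:31613928-31613957, plus strand: taccggaacccGCGCATGCcccggaagtag
Mrpl33, ETS core, chr5:31613937-31613966, plus strand: ccgcgcatgccCCGGAAGtagtcgttgagc
Mrpl34, ETS core, chr8:71464878-71464907, plus strand: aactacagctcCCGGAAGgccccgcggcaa
Mrps21, ETS core in reverse complement, chr3:95871478-95871507, minus strand: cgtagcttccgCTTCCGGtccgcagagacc
Mrpl42, YY1 core, chr10:95501904-95501933, minus strand: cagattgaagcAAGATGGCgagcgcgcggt
Mrps18b, NRF1 core in reverse complement, chr17:35916394-35916423, minus strand: gcgtgtcccgaGCATGCGCagtcgctcttc
In Mrpl33 the NRF1 and ETS cores lie side by side, so the windows overlap. None of the 3 cores was found in the promoters of Mrpl14, Mrpl50, Mrps15, and Mrps36, which are described with the genotypes.

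Single members were seen in some libraries and not in others. Of the 1014 values of 78 members in 13 libraries, 542 (53.5%) were 0, 58 lay between 0 and 1 TPM, 80 between 1 and 10, 128 between 10 and 100, and 206 (20.3%) were 100 TPM or more. The median of the 472 values above 0 was 71.3 TPM. Only Mrpl33, a large-subunit protein with a bacterial homologue, was above 0 in all 13 libraries, and 4 members were above 0 in at least 12. Mrpl55 was listed at 0 in every library. A further 47 members were above 0 in 1 to 6 libraries, and 48 had a median TPM of 0.

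**Figure D1:**
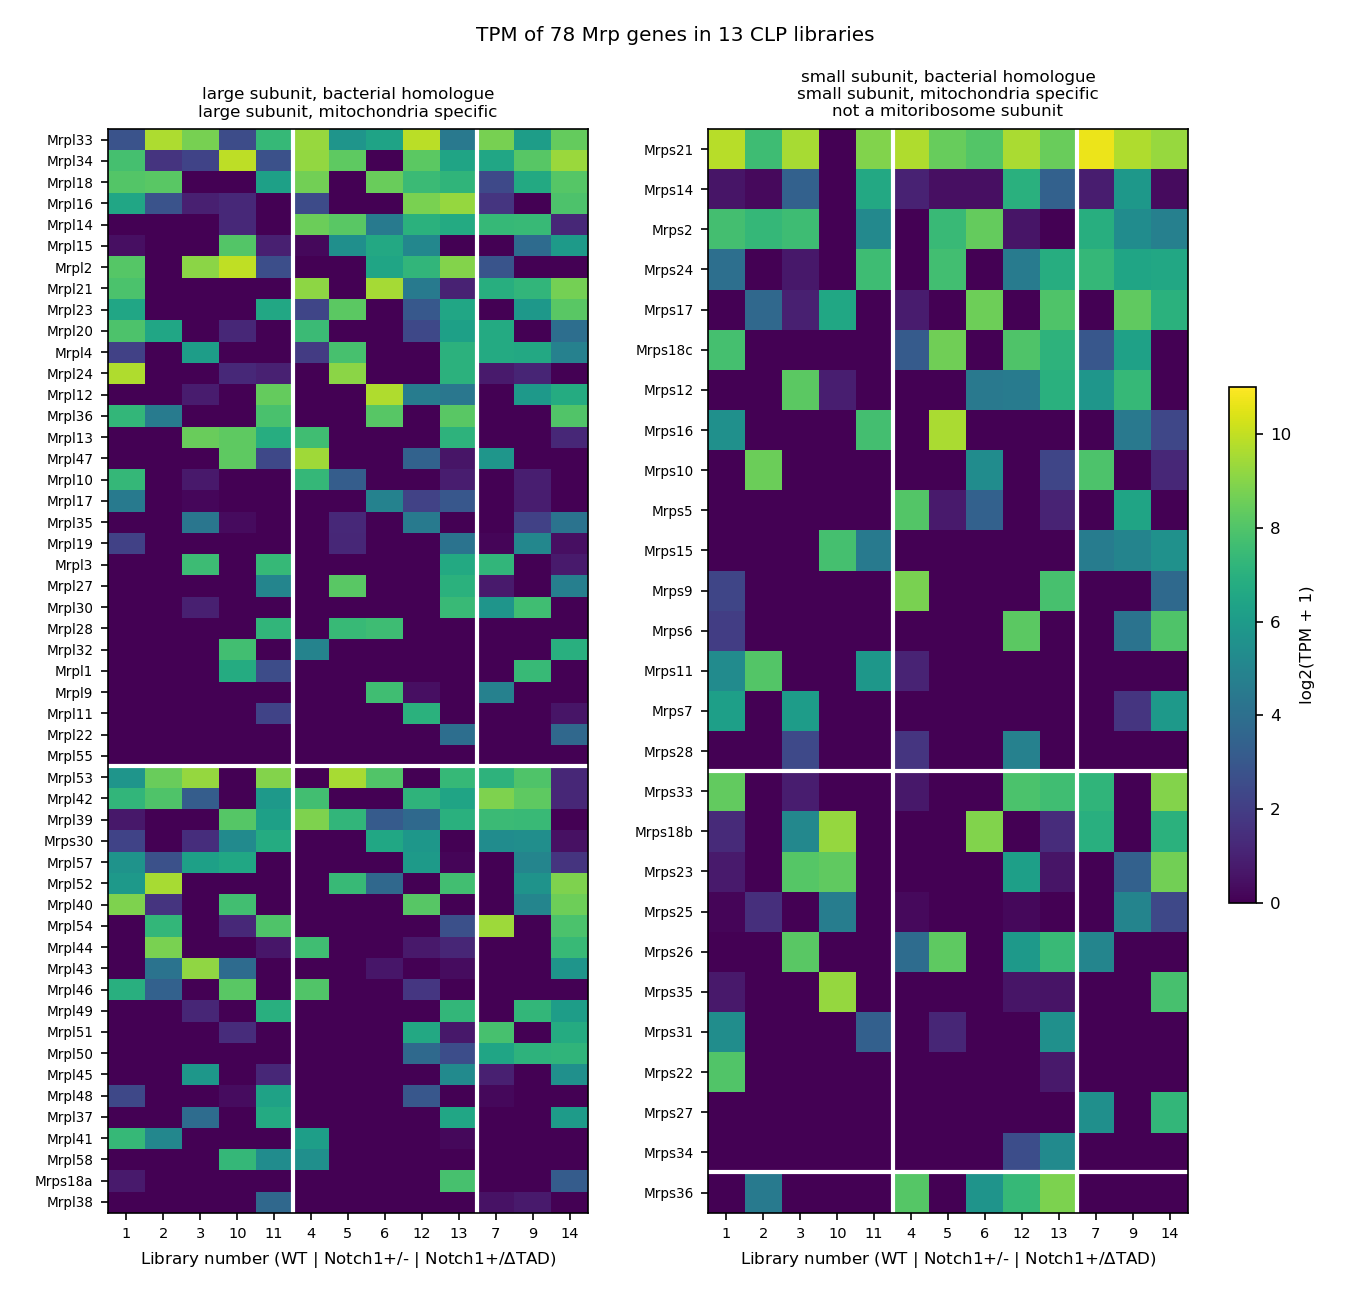
Heat map of log2(TPM + 1) for the 78 genes (rows, grouped by subunit and origin and ordered by number of libraries above 0) in the 13 libraries (columns, white lines between WT, Notch1+/-, and Notch1+/ΔTAD). Dark cells are values of 0, which make up 53.5% of the 1014, and 1 row, Mrpl33, has no value of 0.

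Other housekeeping families were listed at 0 less often in the same libraries. Of 85 cytosolic ribosomal protein genes, 76 were above 0 in all 13 libraries and 7.24% of values were 0. Of 75 nuclear genes for subunits of oxidative phosphorylation, 18 were above 0 in all 13 and 20.7% of values were 0. The median value above 0 was 3345 TPM in the cytosolic ribosomal and 317 TPM in the oxidative phosphorylation family, both above the 71.3 TPM of the mitochondrial ribosomal family. Across all genes, 82.3% of values were 0. These differences were not tested, because genes are not replicates.

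**Figure D2:**
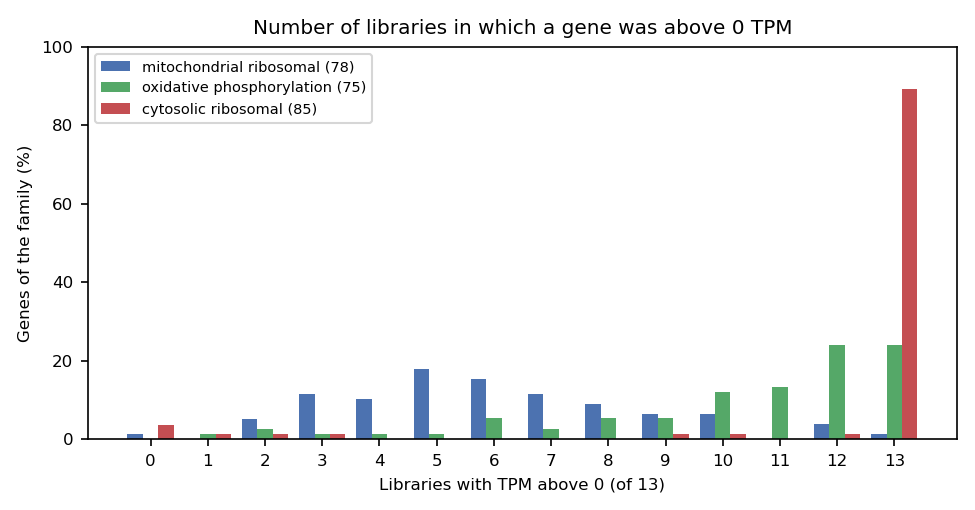
Percentage of genes of 3 families (y axis) by the number of libraries in which the gene was above 0 TPM (x axis, of 13). The cytosolic ribosomal genes pile up at 13 libraries (76 of 85), whereas the mitochondrial ribosomal genes spread around a median of 6.

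The spread of a member over libraries was wide. The coefficient of variation of a member over the 13 libraries had a median of 191%, beside 31.8% for cytosolic ribosomal and 94.4% for oxidative phosphorylation genes. The rank order of the members differed between libraries. The median Spearman rho over the 78 members was 0.146 for the 23 pairs of libraries of the same genotype and 0.175 for the 55 pairs of different genotypes. For cytosolic ribosomal genes these values were 0.900 and 0.910, and for oxidative phosphorylation genes 0.462 and 0.478. The points of each such correlation share their libraries.

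Values repeated exactly in a way that bears on low members. In each library 1 low value above 0, between 0.550 and 1.41 TPM, was shared by 12 to 57 genes, and 21 values of members were at it. In Notch1+/ΔTAD library 14 this value was 1.36 TPM, held by 57 genes and by Mrpl13, Mrpl14, Mrpl42, Mrpl53, and Mrps10 among them, although the annotated exons of Mrpl13 span 7936 bases and those of Mrpl14 949. For these genes the value thus did not follow the annotated length, and what set it was not tested. The exon length of members had a median of 2394 bases (607 to 8631), and its Spearman rho with mean TPM over the 78 members was -0.26.

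Summed over all 78 genes, the family varied less between libraries than its members did. A sum of many weakly correlated values does so by arithmetic, so this is not a finding about the family. The sum was 3848 to 7284 TPM, with a coefficient of variation of 18.7% over 13 libraries, beside 7.66% for the cytosolic ribosomal sum (326286 to 407268 TPM) and 28.1% for the oxidative phosphorylation sum (22517 to 59990 TPM). In WT libraries the sum was 5824 TPM in library 1, 4265 in 2, 4850 in 3, 6091 in 10, and 3848 in 11 (mean 4976 ± 969, SD, n = 5). In Notch1+/- libraries it was 6898 TPM in library 4, 5510 in 5, 4850 in 6, 5142 in 12, and 6016 in 13 (5683 ± 807, SD, n = 5). In Notch1+/ΔTAD libraries it was 5691 TPM in library 7, 4336 in 9, and 7284 in 14 (5771 ± 1475, SD, n = 3). The ranges of the 3 genotypes overlapped, and the means differed by less than 1 SD of the WT libraries.

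The number of members above 0 was 43, 24, 32, 30, and 36 in WT libraries 1, 2, 3, 10, and 11. It was 32, 24, 25, 41, and 55 in Notch1+/- libraries 4, 5, 6, 12, and 13, and 38, 40, and 52 in Notch1+/ΔTAD libraries 7, 9, and 14. The library with the most members above 0, Notch1+/- library 13, also had the most genes above 0 of any kind (6326), and the 3 Notch1+/ΔTAD libraries had 4706 to 5764 genes above 0 where WT had 3744 to 4614. The part of this gene number in the values of single members was not tested. The 5 highest members of a library held 36.6% to 64.0% of its sum.

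Between the subunits, the large-subunit genes summed to 3364 ± 596 TPM in WT (SD, n = 5), 3722 ± 806 in Notch1+/- (n = 5), and 3443 ± 1059 in Notch1+/ΔTAD libraries (n = 3), and the small-subunit genes to 1608 ± 518, 1772 ± 282, and 2328 ± 498 TPM. The ratio of large to small was 2.24 ± 0.68 in WT, 2.17 ± 0.69 in Notch1+/-, and 1.48 ± 0.26 in Notch1+/ΔTAD libraries. The 3 Notch1+/ΔTAD ratios ran from 1.22 to 1.74 and overlapped with the WT range of 1.54 to 3.25. By origin, the 30 large-subunit genes with a bacterial homologue summed to 1208 to 3139 TPM in WT, 2223 to 3815 in Notch1+/-, and 1314 to 2876 in Notch1+/ΔTAD libraries. The 21 large-subunit genes specific to mitochondria summed to 1077 to 2037, 370 to 1245, and 1172 to 1809 TPM. The 16 small-subunit genes with a bacterial homologue summed to 308 to 1515, 1044 to 1890, and 1252 to 2223 TPM, and the 10 specific ones to 1.81 to 1561, 14.9 to 477, and 39.6 to 1408 TPM. No class separated the 3 genotypes.

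**Figure D3:**
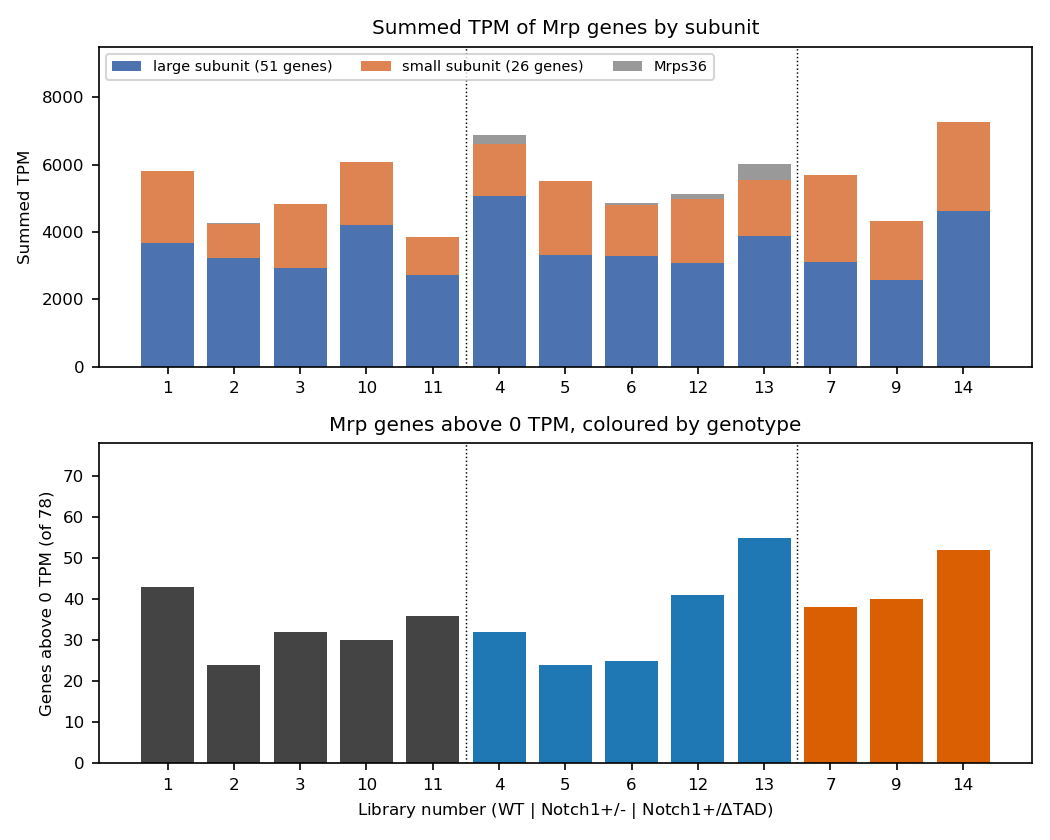
Upper panel: summed TPM of the Mrp genes (y axis) in each library (x axis, dotted lines between WT, Notch1+/-, and Notch1+/ΔTAD), stacked as large subunit, small subunit, and Mrps36. Lower panel: number of the 78 genes above 0 TPM. The sums lie between 3848 and 7284 TPM in all 3 genotypes, and the counts between 24 and 55.

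The highest member was Mrps21, a small-subunit protein with a bacterial homologue, encoded on chromosome 3 from 95862634 to 95871519 (minus strand, GRCm38, here and for the genes that follow). Its level was 911 TPM in WT library 1, 192 in 2, 743 in 3, 0 in 10, and 484 in 11. In Notch1+/- libraries 4, 5, 6, 12, and 13 it was 831, 346, 262, 779, and 357 TPM, and in Notch1+/ΔTAD libraries 7, 9, and 14 it was 1622, 819, and 625 TPM. It made up 0 to 28.5% of the family's sum. Apart from WT library 10, in which it was listed at 0, Mrps21 was at 192 TPM or more in every library. A pseudogene, Gm6181, matches the end of its transcript, so reads of either could be counted for the other. The difference between Notch1+/ΔTAD and WT in mean log2(TPM + 1) was 2.70 (SE 1.76, limma adjusted p = 0.952), and the groups overlapped.

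Mrpl33, encoded on chromosome 5 from 31596935 to 31664384 (plus strand), was 6.04, 801, 424, 4.91, and 164 TPM in WT libraries 1, 2, 3, 10, and 11. It was 629, 51.8, 83.0, 937, and 20.998 TPM in Notch1+/- libraries 4, 5, 6, 12, and 13, and 431, 69.1, and 341 TPM in Notch1+/ΔTAD libraries 7, 9, and 14. The most widely detected member therefore still ranged over more than 2 orders of magnitude, within WT alone. Gm43809 overlaps it on the same strand. Mrpl34, a short large-subunit protein with a bacterial homologue (chromosome 8, 71464959 to 71465747, plus strand), was 218, 2.16, 3.68, 965, and 5.71 TPM in the WT libraries in the same order. It was 593, 307, 0, 300, and 84.5 TPM in Notch1+/- and 90.6, 285, and 655 TPM in Notch1+/ΔTAD libraries. For both genes all 3 genotypes overlapped.

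Other members with a median of 40.0 TPM or more were Mrpl53, Mrpl18, Mrpl42, Mrpl39, and Mrps2, each above 0 in 10 libraries. Mrpl18 belongs to the central protuberance of the large subunit, and its lowest and highest levels were 0 and 287 TPM in WT, 0 and 400 TPM in Notch1+/-, and 4.44 and 276 TPM in Notch1+/ΔTAD libraries. Mrpl39, which resembles a threonyl-tRNA synthetase, ran from 0 to 275, 7.92 to 474, and 0 to 180 TPM. Mrpl53 ran from 0 to 614, 0 to 760, and 1.36 to 247 TPM, and a gene that overlaps it on the same strand, Gm42688, shares its end. Mrpl42 ran from 0 to 254, 0 to 203, and 1.36 to 473 TPM, with a pseudogene (Gm6419) that matches its end, and Mrps2 from 0 to 206, 0 to 336, and 26.6 to 117 TPM. In each of these genes the genotypes overlapped, and 0 was a value of at least 1 WT library.

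To ask whether the mutations changed the family, log2(TPM + 1) values of all genes were compared with limma, over genes at 1 TPM or more in a number of libraries equal to that of the smaller group or more. A gene passed at a Benjamini-Hochberg adjusted p under 0.05, adjusted over all genes tested. For Notch1+/ΔTAD against WT, 51 of the 78 members were among 4737 genes tested, 0 members passed, and 0 of all genes (0.0%) passed. With another method (DESeq2), the paper reported differentially expressed genes in this comparison, Deptor among them. The 0 calls here therefore do not show that the genotypes were alike. At an unadjusted p under 0.05, 6 of the 51 were higher in Notch1+/ΔTAD (Mrpl4, Mrpl14, Mrpl21, Mrpl50, Mrpl51, and Mrps6), beside 4.14% of all genes tested, and 0 were lower, beside 0.866%. For 1 member, Mrpl50, every Notch1+/ΔTAD library was above every WT library, as for 2.39% of all genes, and for 0 members every one was below, as for 0.739%. The median difference over the 51 was 1.24, beside 0.47 over all genes tested, and 38 of 51 were above 0, beside 61.8% of all genes. A member listed at 0 in WT could enter this test only by being high in Notch1+/ΔTAD, and a member listed at 0 in Notch1+/ΔTAD only through WT. These counts and medians therefore describe the members that passed the minimum and not the 78. With no minimum the median was 0.82, beside 0.27 over all genes. Of the remaining 27 members, 2 had no value above 0 in the libraries compared.

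Mrpl50, a large-subunit protein specific to mitochondria (chromosome 4, 49512596 to 49521093, minus strand, 2 exons), was listed at 0 in all 5 WT libraries. In Notch1+/- libraries it was listed at 0 in 4, 5, and 6 and was 12.5 TPM in 12 and 4.99 TPM in 13. In Notch1+/ΔTAD libraries 7, 9, and 14 it was 87.0, 138, and 148 TPM. The Notch1+/ΔTAD libraries overlapped with neither other genotype. On the log2(TPM + 1) scale Notch1+/ΔTAD exceeded WT by 6.93 (SE 1.59, limma adjusted p = 0.395), the smallest adjusted p of this comparison, and the exact permutation p was 0.0179, the smallest that 56 splits allow. That p is unadjusted and restates the lack of overlap for which the gene is named. Notch1+/ΔTAD exceeded Notch1+/- by 5.66 (SE 1.57, limma adjusted p = 0.642). With no value above 0 in WT, the size of the first difference is set by the pseudocount and is not a fold change.

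Mrpl21, a large-subunit protein with a bacterial homologue (chromosome 19, 3282901 to 3292837), was 234 TPM in WT library 1 and 0 in the other 4. It was 564, 0, 732, 22.4, and 1.10 TPM in Notch1+/- libraries 4, 5, 6, 12, and 13, and 117, 150, and 414 TPM in Notch1+/ΔTAD libraries 7, 9, and 14. Notch1+/ΔTAD exceeded WT by 6.03 on the log2(TPM + 1) scale (SE 2.12, limma adjusted p = 0.791), with overlap through WT library 1. D9Wsu149, a pseudogene on chromosome 9, matches the end of its transcript. Mrpl51, specific to mitochondria, was 1.62 TPM in WT library 10 and 0 in the other 4, and 221, 0, and 107 TPM in Notch1+/ΔTAD libraries 7, 9, and 14 (4.57, SE 1.80, limma adjusted p = 0.913). Mrpl4, which lines the exit tunnel of the large subunit, was 105, 100, and 27.7 TPM in the same 3 libraries and up to 68.7 TPM in WT (4.43, SE 1.98, limma adjusted p = 0.952). Mrps6 was 0, 17.05, and 253 TPM in them and at most 2.98 TPM in WT (3.65, SE 1.69, limma adjusted p = 0.952). Gm49711, Slc5a3, and Gm16310 overlap Mrps6 on the same strand.

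The members with the smallest p on the lower side in Notch1+/ΔTAD were Mrpl2, Mrps11, Mrpl13, and Mrpl46. Mrpl2, which lies near the peptidyl transferase center (chromosome 17, 46646229 to 46650139), was 277, 0, 544, 973, and 5.21 TPM in WT libraries 1, 2, 3, 10, and 11, and 6.24, 0, and 0 TPM in Notch1+/ΔTAD libraries 7, 9, and 14. Its difference was -5.00 (SE 2.36, limma adjusted p = 0.952), and WT libraries 2 and 11 overlapped with the mutant. Gm26904 overlaps Mrpl2 on the same strand. Mrps11 (-3.84, SE 2.09, limma adjusted p = 0.952) and Mrpl46 (-3.71, SE 2.11, limma adjusted p = 0.952) were listed at 0 in the 3 Notch1+/ΔTAD libraries and were 0, 0, 39.1, 55.5, and 266 TPM and 0, 0, 9.66, 122, and 294 TPM in the WT libraries, in order of level. Both genes met the minimum for testing only through WT libraries, and the size of their differences depends on the pseudocount. They lie head to head on chromosome 7 and overlap on opposite strands, Mrpl46 from 78775236 to 78783531 and Mrps11 from 78783119 to 78792989. Gm45059 overlaps Mrpl46 on the same strand. Mrpl13 was 0, 0, 352, 313, and 116 TPM in WT libraries 1, 2, 3, 10, and 11 and 0, 0, and 1.36 TPM in Notch1+/ΔTAD libraries (-4.31, SE 2.39, limma adjusted p = 0.952). Each of these 4 was at 0 or near it in at least 1 WT library, so none separated the groups.

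For Notch1+/- against WT, 28 of the 78 members were among 3178 genes tested, 0 members passed, and 0 of all genes (0.0%) passed. At an unadjusted p under 0.05, 2 of the 28 were higher in Notch1+/- (Mrpl14 and Mrps36), beside 2.67% of all genes, and 0 were lower, beside 2.67%. Every Notch1+/- library was above every WT library for 1 member, Mrpl14, as for 0.409% of all genes, and below for 0, as for 0.378%. The median difference over the 28 was 0.88, beside 0.06 over all genes tested, and 18 of 28 were above 0, beside 51.4% of all genes. The same minimum selected these 28, and with no minimum the median was 0.62, beside 0.05 over all genes. Without Notch1+/- library 13 the median over members was 0.28 and without Notch1+/- library 4 it was 1.39, so single libraries set its size.

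Mrpl14, a large-subunit protein with a bacterial homologue that lies at the interface between the subunits (chromosome 17, 45686322 to 45698495, plus strand, 4 exons), was 1.41 TPM in WT library 10 and 0 in the other 4. In Notch1+/- libraries 4, 5, 6, 12, and 13 it was 369, 291, 21.3, 131, and 103 TPM, and in Notch1+/ΔTAD libraries 7, 9, and 14 it was 167, 172, and 1.36 TPM. The 1.41 TPM in WT library 10 and the 1.36 TPM in Notch1+/ΔTAD library 14 are the low values shared by many genes of those libraries. All 5 Notch1+/- libraries and 2 of 3 Notch1+/ΔTAD libraries were above every WT library. Notch1+/- exceeded WT by 6.74 on the log2(TPM + 1) scale (SE 1.39, limma adjusted p = 0.341), the smallest adjusted p of this comparison. The exact permutation p was 0.00794, the smallest that 252 splits allow, which is unadjusted and restates the lack of overlap. Notch1+/ΔTAD exceeded WT by 5.10 (SE 1.75, limma adjusted p = 0.720), and the exact permutation p, unadjusted, was 0.0357. Both comparisons use the same WT libraries, in which the gene was near 0, and so do not count as 2 observations.

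Mrps36, which links enzymes of the alpha-ketoglutarate dehydrogenase complex and is not a ribosomal subunit (chromosome 13, 100735955 to 100744659, minus strand), was 21.7 TPM in WT library 2 and 0 in the other 4. It was 271, 0, 51.3, 164, and 461 TPM in Notch1+/- libraries 4, 5, 6, 12, and 13 and 0 in all 3 Notch1+/ΔTAD libraries. Notch1+/- library 5 overlapped with both other genotypes. The difference of Notch1+/- from WT was 5.10 (SE 1.84, limma adjusted p = 0.820), and that of Notch1+/ΔTAD from Notch1+/- was -6.00 (SE 2.02, limma adjusted p = 0.932). With no value above 0 in Notch1+/ΔTAD, the size of the second difference depends on the pseudocount. The end of its transcript matches 5 other genes, 2 of them named as its pseudogenes (Mrps36-ps1 and Mrps36-ps2), so its level is uncertain.

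The next members in order of p were Mrps18c, Mrps26, and Mrpl39 on the higher and Mrpl57, Mrps2, and Mrpl46 on the lower side in Notch1+/-. Mrps26, specific to mitochondria, was 292 TPM in WT library 3 and 0 in the other 4, and 14.0, 312, 0, 58.3, and 174 TPM in Notch1+/- libraries 4, 5, 6, 12, and 13 (3.47, SE 2.05, limma adjusted p = 0.969). Mrpl57 was 48.5, 5.61, 75.3, 93.1, and 0 TPM in WT libraries 1, 2, 3, 10, and 11 and 61.8 TPM in library 12, 0.112 TPM in library 13, and 0 in the other 3 Notch1+/- libraries (-3.01, SE 1.70, limma adjusted p = 0.967). Mrps2 differed by -2.25 (SE 2.12) and Mrpl46 by -1.76 (SE 2.05), each with a limma adjusted p of 0.993. Neither set of libraries separated in any of these genes.

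**Figure D4:**
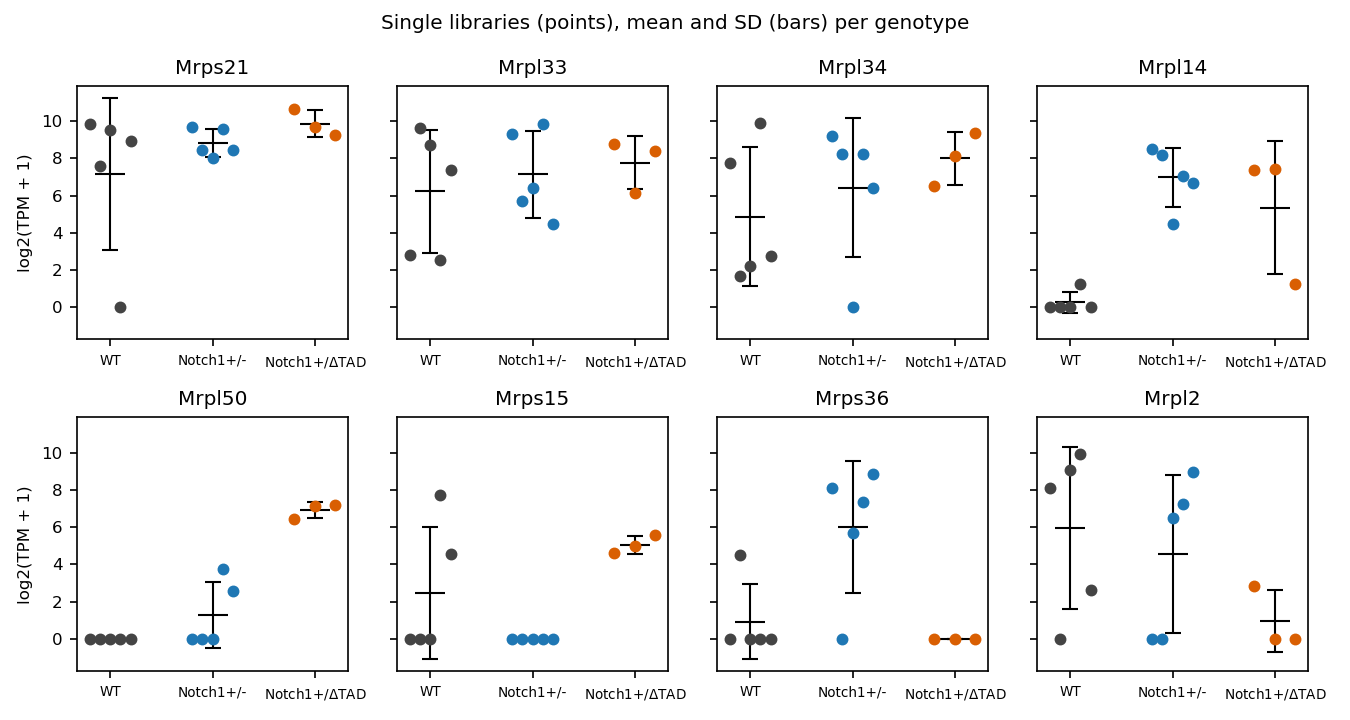
Level of 8 members as log2(TPM + 1) (y axis) in single libraries (points) of WT, Notch1+/-, and Notch1+/ΔTAD (x axis), with the mean and SD of each genotype as bars. Mrpl14 is near 0 in the 5 WT libraries, Mrpl50 is at 0 in WT and highest in Notch1+/ΔTAD, and the other 6 overlap between WT and both mutants.

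Between the mutants, 68 of the 78 members were among 6281 genes tested in a model of all 13 libraries, 0 members passed, and 0 of all genes (0.0%) passed. At an unadjusted p under 0.05, 3 members were higher in Notch1+/ΔTAD (Mrpl50, Mrpl54, and Mrps15), beside 4.09% of all genes, and 1 was lower (Mrps36), beside 1.24%. Every Notch1+/ΔTAD library was above every Notch1+/- library for 2 members, Mrpl50 and Mrps15, as for 2.44% of all genes, and below for 0, as for 0.621%. The median difference over the 68 was 0.69, beside 0.35 over all genes tested, and with no minimum it was 0.56, beside 0.03. Without Notch1+/ΔTAD library 14 it was 0.29.

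Mrps15, a small-subunit protein with a bacterial homologue (chromosome 4, 126046925 to 126055532, plus strand), was listed at 0 in all 5 Notch1+/- libraries and was 23.4, 30.2, and 45.9 TPM in Notch1+/ΔTAD libraries 7, 9, and 14. In WT it was 215 TPM in library 10, 22.2 TPM in library 11, and 0 in the other 3, so that WT spanned both mutants. The difference between the mutants was 5.04 (SE 1.85, limma adjusted p = 0.932). With no value above 0 in Notch1+/-, its size depends on the pseudocount, and it ran from 2.08 to 8.32 over the alternatives run. The exact permutation p of 0.0179, the smallest that 56 splits allow, is unadjusted and restates that the mutants did not overlap. Mrpl54, specific to mitochondria, was 667, 0, and 234 TPM in Notch1+/ΔTAD and 5.50 TPM in library 13 and 0 in the other 4 Notch1+/- libraries (5.21, SE 2.33, limma adjusted p = 0.932). It was 0, 153, 0, 1.41, and 252 TPM in WT libraries 1, 2, 3, 10, and 11. Mrpl28, the fourth member on the lower side after Mrps36, Mrps26, and Mrpl2, was above 0 in only 3 libraries, at 148 TPM in WT library 11, 167 TPM in Notch1+/- library 5, and 189 TPM in Notch1+/- library 6.

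**Figure D5:**
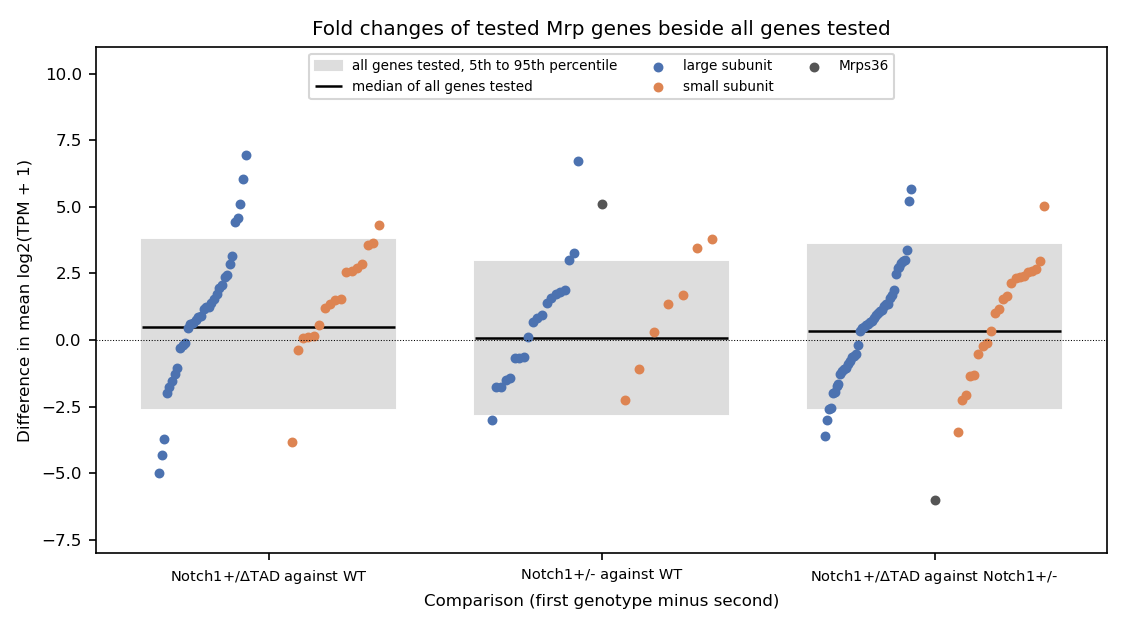
Difference in mean log2(TPM + 1) (y axis, first genotype minus second) of the members tested in each comparison (x axis; 51, 28, and 68 members), as points by subunit, sorted by value. Gray boxes span the 5th to 95th percentile of all genes tested and black lines mark their median (0.47, 0.06, and 0.35). The highest points are Mrpl50, Mrpl14, and Mrpl50, and 0 members passed an adjusted p under 0.05 in any comparison.

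Mrps31, a small-subunit protein specific to mitochondria, is among the genes that the study prints beside its heat map, a choice made on these same libraries. It was 41.6 TPM in WT library 1, 9.35 TPM in WT library 11, and 0 in the other 3 WT libraries. In Notch1+/- it was 1.27 TPM in library 5, 44.6 TPM in library 13, and 0 in the other 3, and it was listed at 0 in all 3 Notch1+/ΔTAD libraries. WT and Notch1+/ΔTAD thus overlapped at 0, and the gene did not reach the minimum for the test of this comparison.

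Mrps18a, Mrps18b, and Mrps18c are paralogues related to 1 bacterial ribosomal protein. Mrps18c takes the place of that protein and was counted with the bacterial homologues, whereas Mrps18a, in the large subunit, and Mrps18b, elsewhere in the small subunit, were counted as specific to mitochondria for their positions. Mrps18a was above 0 in 3 libraries, at 0.745 TPM in WT library 1, 222 TPM in Notch1+/- library 13, and 8.15 TPM in Notch1+/ΔTAD library 14. Mrps18b was above 0 in 7 libraries, reaching 613 TPM in WT library 10 and 477 TPM in Notch1+/- library 6. Mrps18c was also above 0 in 7, at 218 TPM in WT library 1 and 0 in the other 4 WT libraries, and at 7.80, 390, 0, 246, and 135 TPM in Notch1+/- libraries 4, 5, 6, 12, and 13. Pseudogenes match the ends of Mrps18b (Gm13552) and Mrps18c (Gm14237 and Gm15946). None of the 3 paralogues was above 0 in every library of a genotype. Across the 78 members, 15 have a pseudogene that matches the last 300 bases of a transcript at 95% identity or more over at least 75 bases. Counting genes of any type, 20 members have such a match. Matches were most numerous for Mrpl20, Mrpl27, and Mrpl40, nearly all of them to genes that are not pseudogenes. Of the 78, 13 overlap another gene on the same strand.

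The other nuclear genes of mitochondrial translation gave 0 calls as well. A list of subunits with other symbols, translation factors, and assembly factors of the mitochondrial ribosome had 42 genes in the tables, of which 14, 7, and 23 were tested in Notch1+/ΔTAD against WT, Notch1+/- against WT, and Notch1+/ΔTAD against Notch1+/-. In each comparison 0 passed the adjusted threshold in limma, 0 had an unadjusted p under 0.05 in either direction, and 0 separated the groups. Over all genes the shares were 0.866% to 4.14% in a direction at an unadjusted p under 0.05 and 0.378% to 2.44% without overlap, so in lists of this size a count of 0 is near the background. The median differences were 1.38, 0.32, and 0.52, beside 0.47, 0.06, and 0.35 over all genes tested, and the minimum selects genes here as it does members. The genes with the smallest p were Trub2, a pseudouridine synthase of mitochondrial RNA, in Notch1+/ΔTAD against WT (-3.04, SE 1.82, limma adjusted p = 0.952), Lrpprc, which stabilizes mitochondrial mRNAs, in Notch1+/- against WT (2.50, SE 1.38, limma adjusted p = 0.961), and Gfm1, a mitochondrial elongation factor, between the mutants (2.90, SE 1.71, limma adjusted p = 0.992). Of 15 genes of the mitochondrial genome looked up by symbol, 0 were among the deposited genes, so their RNAs could not be analysed here.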

How the data were processed

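The authors prepared strand-specific QuantSeq 3′ libraries of sorted CLPs, per the labels in one batch. Reads were trimmed (FASTQ Toolkit) and mapped to mm10 (STAR), and the authors deposited TPM as 2 tables, each holding 1 mutant genotype and the WT libraries, whose 5 columns did not differ between tables. The tool, annotation, and strand setting behind the TPM are not given in the sources used here, and counts were not used, so the authors' count model (DESeq2) was not run. TPM by definition divides by transcript length, although 3′ reads do not scale with it. The low values shared by genes of different annotated lengths did not follow that length. Whether the deposited values were divided in this way is not known, so levels of different genes are not strictly comparable. The labels and the methods give different numbers of sorted cells per mouse.

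Values were transformed to log2(TPM + 1), which understates changes of low genes. Genes at 1 TPM or more in as many libraries as the smaller genotype holds were tested in R 4.3.3 with limma 3.58.1 (lmFit, eBayes with trend, 2-sided), within the 2 genotypes compared or, between the mutants, in 1 model of 13 libraries, with Benjamini-Hochberg adjustment over all genes tested. For single members, an exact permutation test (2-sided) of the difference in mean log2(TPM + 1) was added. With 1 library per mouse, p-values measure the spread between libraries. Differences between mice and noise from library preparation at low RNA input cannot be told apart in it. Library numbers are not shared between genotypes. Transcript ends were compared with blastn 2.17.0. Members, gene lists, tests, and alternatives were chosen with earlier results of these data known. Members named were Mrps31 and Mrpl14, those with the smallest unadjusted p in each direction of each comparison, those without overlap between genotypes, those with the highest median TPM, those at 0 throughout, the Mrps18 paralogues, and Mrps36. Alternatives were pseudocounts of 0.1 and 10, no filter, a minimum mean TPM of 10, scaling by median ratios, quantile normalization, eBayes with no trend, a covariate that splits libraries 1 to 9 from 10 to 14, and leaving out each library.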

Additional observations from a re-analysis of the deposited data

Results flagged for a closer look

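In 62 sets of 5 libraries of 1 genotype, covering 27 members and 5 summary measures, 18 sets held a library farther from the others than Dixon's 95% limit. Chance flags about 1 in 20 sets of normal values. In 11 of the 18 the other 4 libraries were all listed at 0, so that any value above 0 stood apart. The cause was not tested.

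In WT libraries, these were Mrpl21 at 234 TPM, Mrps18a at 0.745 TPM, and Mrps18c at 218 TPM in library 1, Mrps36 at 21.7 TPM in library 2, Mrps26 at 292 TPM in library 3, Mrpl14 at 1.41 TPM, Mrpl51 at 1.62 TPM, and Mrps21 at 0 TPM in library 10, and Mrpl28 at 148 TPM in library 11. In Notch1+/- libraries, they were Mrpl46 at 260 TPM and Mrps11 at 1.16 TPM in library 4, Mrpl18 at 0 TPM in library 5, Mrps18b at 477 TPM in library 6, Mrpl51 at 98.3 TPM and Mrpl57 at 61.8 TPM in library 12, and Mrpl54 at 5.50 TPM, Mrps18a at 222 TPM, and Mrps31 at 44.6 TPM in library 13. The 3 Notch1+/ΔTAD libraries were too few for this check.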

How the results depend on the processing

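Without the trend in eBayes, 1 member passed in Notch1+/ΔTAD against WT (Mrpl50, among 15 genes) and 1 in Notch1+/- against WT (Mrpl14, among 2 genes), and 0 passed between the mutants. Under every other alternative run, leaving out each library included, 0 members passed. The adjusted p of Mrpl50 against WT ranged from 0.0229 to 0.850, and that of Mrpl14 in Notch1+/- from 0.0238 to 0.853. Both stayed higher in the mutant throughout. As neither gene overlapped between the groups compared, this direction could not turn with the pseudocount or with a library left out. The median difference of members in Notch1+/ΔTAD against WT was 1.87 with a pseudocount of 0.1, 0.43 with a pseudocount of 10, and 0.69 after quantile normalization, which moved the median of all genes to -0.02. With a mean TPM of 10 or more it was 0.83. It was 0.81 to 1.41 with 1 library left out. Members at an unadjusted p under 0.05 in that comparison numbered 3 without Notch1+/ΔTAD library 14, and in Notch1+/- against WT they numbered 4 without WT library 1, 3, or 10 or Notch1+/- library 6. Of 1117 values of single members under the alternatives, 20 turned direction, 19 of them with 1 library left out. These values cover 62 differences, chosen in these same data mostly for a small p. The share that turned is therefore not a rate for all members. With 1 library left out, differences in Notch1+/ΔTAD against WT ran from -2.35 to 0.079 for Mrpl24, -3.94 to 0.062 for Mrpl36, -2.67 to 1.05 for Mrpl53, and -1.48 to 0.88 for Mrps16, which was 0.39 with a pseudocount of 0.1. In Notch1+/- against WT they ran from -0.12 to 2.34 for Mrps21, -2.79 to 0.45 for Mrps18b, -1.68 to 0.25 for Mrps30, -1.85 to 0.43 for Mrpl42, and -1.90 to 0.30 for Mrpl36, and between the mutants from -2.68 to 0.42 for Mrpl14. The causes were not tested. The summed TPM of each genotype moved by less than 1 SD under every alternative run. No paired analysis was run, because each library number names a single library and gives no pairing between genotypes. Without read counts, depth and the precision of values near 0 are unknown.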
